A study of Homo sapiens with 6 samples.

Results

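The 9 genes described here are the beta-tubulin genes TUBB, TUBB2A, TUBB2B, TUBB3, TUBB4A, TUBB4B and TUBB6 and the microtubule-associated protein genes MAP1A and MAP1B, picked by symbol out of the 60649 genes of a count table. They were selected on their levels under hairpins against the long non-coding RNA LINC02068 relative to a control hairpin, so that contrast is given for them as a description without a test. The difference between the hairpins, which the selection did not use, is the only contrast tested for them. RNA was sequenced from 786-O cells, a widely used line from a human clear cell carcinoma of the kidney, and all 6 libraries come from this line with no further treatment before RNA extraction. The groups were shRNA1 and shRNA2, whose genotype is given as LINC02068 knockdown, and shControl, a control hairpin whose genotype is given as WT, with 2 libraries each. Whether replicates are separate cultures, and whether a group is 1 clone or a pool of infected cells, is not given in the sources used here, so p-values measure the spread between these libraries, which may be technical.

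Microtubules are hollow polymers of alpha- and beta-tubulin dimers. Humans make beta-tubulin from several genes, and the isotypes share a conserved body and differ most in an acidic tail at the carboxyl end, where motors and microtubule-associated proteins bind and where modifying enzymes add glutamate or glycine chains. MAP1A and MAP1B bind along microtubules, and each is made as a precursor that is cut into a heavy and a light chain. Cells adjust tubulin mRNA to the pool of free dimers: TTC5 recognises tubulin as it leaves the ribosome and recruits SCAPER and the CCR4-NOT deadenylase, which shortens the mRNA's life. TUBB and TUBB4B are known as broadly expressed isotypes, TUBB2A, TUBB2B, TUBB3 and TUBB4A are abundant in brain, TUBB6 is found in many tissues at modest levels, MAP1B is typical of growing neurons and MAP1A of mature ones.

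The isotypes differ in the last part of the coding sequence, which encodes the tail. The final 60 coding bases of each, stop codon included, are shown from the principal transcript in GENCODE 29 on GRCh38, 5′ to 3′, because they separate genes whose values are compared further on. Capitals mark bases that differ from TUBB4B, the isotype with the largest share of counts, or have no partner in it, in a global alignment of the 2 coding sequences. TUBB4B is therefore all in lower case.
TUBB4B: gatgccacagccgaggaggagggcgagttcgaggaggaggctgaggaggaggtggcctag
TUBB4A: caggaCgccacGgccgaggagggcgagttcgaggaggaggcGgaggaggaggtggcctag
TUBB: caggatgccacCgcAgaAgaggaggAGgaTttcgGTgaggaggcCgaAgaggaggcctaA
TUBB2A: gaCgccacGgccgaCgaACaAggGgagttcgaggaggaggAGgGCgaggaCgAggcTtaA
TUBB2B: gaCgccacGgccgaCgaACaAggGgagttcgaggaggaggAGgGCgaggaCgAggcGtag
TUBB6: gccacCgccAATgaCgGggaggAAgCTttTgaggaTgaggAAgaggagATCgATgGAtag
TUBB3: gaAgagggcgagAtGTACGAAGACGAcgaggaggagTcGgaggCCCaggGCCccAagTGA
Bases of TUBB4B that an isotype lacks are neither marked nor counted here. TUBB4A and TUBB lack some within the printed stretch, with 1335 coding bases against 1338 in TUBB4B. Of its own printed bases, TUBB4A departed from TUBB4B at 3 (5.0%), although 12.9% of the coding bases before them differ. TUBB differed at 11 bases (18.3%) and TUBB3, whose tail stands furthest from TUBB4B here, at 26 (43.3%). TUBB2A and TUBB2B differ from each other in few coding bases (98.1% identity over the whole coding sequence), against 87.3% for TUBB4A and TUBB4B and 81.0% for TUBB and TUBB6, the least alike pair. The coding sequences run from 1335 bases in TUBB and TUBB4A to 1353 bases in TUBB3. The first 12 bases, where the autoregulation signal of beta-tubulin is encoded, read atgagggaaatc in TUBB and TUBB4B, atgagggagatc in TUBB3 and TUBB6, atgcgggagatc in TUBB4A, atgcgcgagatc in TUBB2A and atgcgtgagatc in TUBB2B.

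On GRCh38 in GENCODE 29, TUBB spans chr6:30720201-30725426 on the plus strand, TUBB2A chr6:3153669-3157526 and TUBB2B chr6:3224261-3231730 on the minus strand, and TUBB3 chr16:89921392-89938761 on the plus strand. TUBB4A spans chr19:6494319-6502848 on the minus strand, TUBB4B chr9:137241213-137243707 and TUBB6 chr18:12307669-12344320 on the plus strand. MAP1A spans chr15:43510958-43531620 and MAP1B chr5:72107234-72209570, both on the plus strand. All are annotated as protein-coding, with 4 exons in the principal transcript of each beta-tubulin, 6 in MAP1A and 7 in MAP1B.

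Total counts per library ran from 15376448 to 37311846, and 1 CPM (counts-per-million, on library sizes scaled by TMM) stood for 14.9 to 36 counts. The TMM factors, which correct for composition, were 0.96 to 0.969 in the hairpin libraries and 1.07 to 1.08 in the shControl libraries. Of all genes, 16039 passed the filter on low counts, all 9 described here among them. LINC02068 itself had 9 and 2 counts with shRNA1, 17 and 10 with shRNA2, and 20 and 32 in shControl libraries, and fell by 1.46 ± 0.59 on the log2 scale for the mean of both hairpins (edgeR adjusted p = 0.0447). Against shControl, shRNA1 by itself gave an adjusted p of 0.069 and shRNA2 by itself 0.148. For the mean of both hairpins the edgeR adjusted p was 0.0506 with a replicate block. It was 0.0547 after removal of a trend on exon length and GC content, and 0.0698 against a fold of 1.2 (glmTreat). Leaving out shRNA1 replicate 2 ended the call (−1.02, 0.124) and leaving out replicate 1 of that group enlarged the fall (−2.26, 0.00914), the call was also lost without shRNA2 replicate 1 (0.0986) or replicate 2 (0.0972) and without shControl replicate 1 (0.16) or replicate 2 (0.219), and DESeq2 gave an adjusted p of 0.107. Errors of fold changes are standard errors of the edgeR fit unless marked SD, and both hairpins are set against the same shControl libraries.

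TUBB4B, the broadly expressed isotype also found in cilia, held the largest share of the family's counts. It had 964 and 989 CPM with shRNA1 and 991 and 1000 CPM with shRNA2, against 451 and 464 CPM in shControl libraries. The hairpin libraries lay close together and well above both shControl libraries. The log2 fold change was 1.11 ± 0.03 for the mean of both hairpins, a 2.15-fold higher level.

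TUBB, the other broadly expressed isotype, had 389 and 381 CPM with shRNA1 and 378 and 398 CPM with shRNA2, against 135 and 159 CPM in shControl libraries. The shControl libraries differed more from each other than the hairpin libraries did. Its log2 fold change of 1.39 ± 0.07 (2.62-fold) was the highest among the 6 abundant isotypes, near 1.33 ± 0.04 for TUBB3. It was 1.27 without shControl replicate 1 and 1.51 without shControl replicate 2, so this rank is uncertain.

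TUBB3, the isotype used as a marker of neurons and linked in tumours to taxane response, had 389 and 382 CPM with shRNA1 and 395 and 368 CPM with shRNA2, against 151 and 154 CPM in shControl libraries. The groups did not overlap, and the log2 fold change was 1.33 ± 0.04 (2.52-fold). TUBB6 had 304 and 305 CPM with shRNA1 and 302 and 265 CPM with shRNA2, against 138 and 134 CPM in shControl libraries. The second shRNA2 library was the lowest of the hairpin libraries but still lay far above the controls, and the log2 fold change was 1.11 ± 0.05 (2.16-fold).

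TUBB2A and TUBB2B, neighbours on chromosome 6 with nearly the same coding sequence, had fewer counts. TUBB2A had 99.2 and 96.3 CPM with shRNA1 and 91.1 and 85.1 CPM with shRNA2, against 39.1 and 42.7 CPM in shControl libraries (log2 fold change 1.18 ± 0.06). TUBB2B had 48.4 and 47.6 CPM with shRNA1 and 47.1 and 41.9 CPM with shRNA2, against 20.6 and 23.2 CPM in shControl libraries (1.07 ± 0.08). In both genes the shRNA2 libraries were below the shRNA1 libraries, and all 4 stood above the controls. Of the 100-base windows of its principal transcript, TUBB2A shares 54.4% exactly with TUBB2B, and how the authors' counting assigned reads that match both is not given in the sources used here, so the split between these 2 genes is uncertain.

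TUBB4A, an isotype of neurons and of the glia that make myelin, had few counts and showed the widest gap. It had 129 and 198 counts with shRNA1 and 398 and 208 counts with shRNA2, against 13 and 27 counts in shControl libraries. On the CPM scale these were 8.67 (95% exact Poisson interval 7.24 to 10.3) and 10.4 (8.96 to 11.9) with shRNA1, and 11.1 (10 to 12.2) and 9.95 (8.64 to 11.4) with shRNA2. In shControl libraries they were 0.697 (0.371 to 1.19) and 0.963 (0.635 to 1.4). The intervals, which cover counting error only, overlapped among the hairpin libraries and between the controls. The gap between these groups is the contrast the gene was picked on, so nothing is read from the intervals about it. The log2 fold change was 3.55 ± 0.22 (11.7-fold), and 38th highest among the 16039 genes tested.

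MAP1A, the microtubule-binding protein of mature neurons, also had few counts and a like pattern. It had 146 and 188 counts with shRNA1 and 340 and 201 counts with shRNA2, against 20 and 29 counts in shControl libraries. On the CPM scale these were 9.81 (8.28 to 11.5) and 9.83 (8.48 to 11.3) with shRNA1, 9.45 (8.47 to 10.5) and 9.62 (8.33 to 11) with shRNA2, and 1.07 (0.655 to 1.66) and 1.03 (0.693 to 1.49) in shControl libraries. All hairpin libraries lay within the counting error of each other, and so did the controls. The log2 fold change was 3.2 ± 0.2 (9.16-fold), the 48th highest of those tested.

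MAP1B, its relative from growing neurons, was well covered in all libraries and differed least. It had 219 and 197 CPM with shRNA1 and 210 and 215 CPM with shRNA2, against 179 and 171 CPM in shControl libraries. The groups did not overlap, and the second shRNA1 library was the lowest of the hairpin libraries. The log2 fold change was 0.26 ± 0.04 (1.2-fold), and 32.4% of all genes tested had a higher fold change. It was 0.11 with library sizes taken as total counts, where the median of all genes was −0.18, against −0.03 under TMM, and 0.38 after removal of a trend on exon length and GC content.

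**Figure D1:**
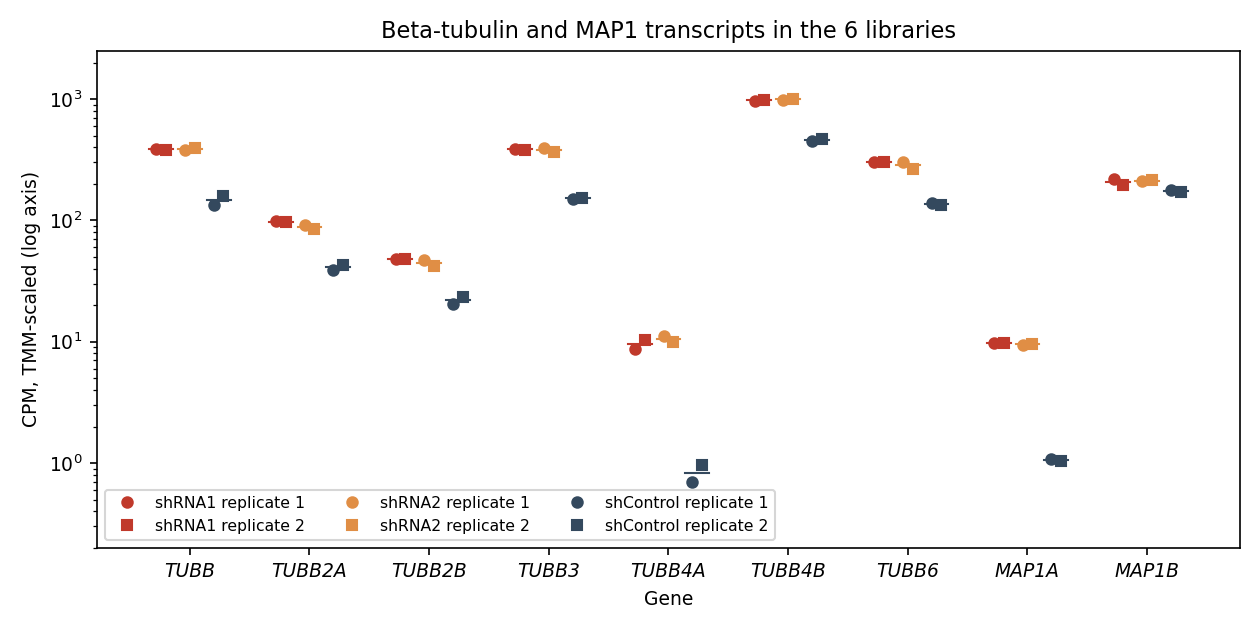
CPM on a log axis for the 7 beta-tubulin and 2 MAP1 genes in each library (red shRNA1, orange shRNA2, dark blue shControl; circles replicate 1, squares replicate 2; short lines are group means of 2 libraries). For TUBB4A the hairpin libraries sit between 8.67 and 11.1 CPM and the shControl libraries at 0.697 and 0.963 CPM, while for MAP1B they sit between 197 and 219 CPM and at 179 and 171 CPM.

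Across all 9 genes the 4 hairpin libraries lay above both shControl libraries, and in 67% of all tested genes the groups separate in this way, above or below. The median log2 fold change was 1.18 for these genes and −0.03 for all tested genes. For the mean of both hairpins edgeR called 57.5% of all tested genes (adjusted p under 0.05), 28.6% higher and 28.9% lower. No call is given for the 9 genes in this contrast, since they were picked on it. RNA from bulk cells cannot tell more RNA in every cell from a larger share of cells with a high level.

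**Figure D2:**
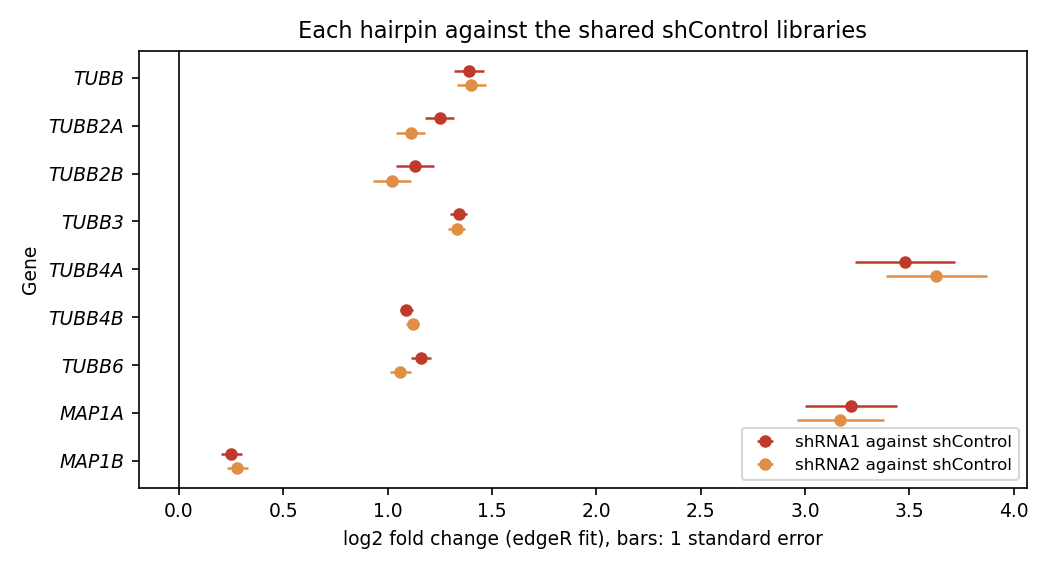
Log2 fold change of each gene with shRNA1 (red) and shRNA2 (orange) against the same 2 shControl libraries, with bars of 1 standard error from the edgeR fit. TUBB4A (3.48 and 3.63) and MAP1A (3.22 and 3.17) lie far to the right of the other beta-tubulins, and MAP1B (0.25 and 0.28) to the left.

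The 7 beta-tubulin genes summed to 2200 and 2210 CPM with shRNA1 and 2220 and 2170 CPM with shRNA2, against 935 and 979 CPM in shControl libraries, a log2 ratio of 1.2. Alpha-tubulin, the partner in the dimer, summed over 8 genes to 4220 and 4310 CPM with shRNA1 and 4440 and 4530 CPM with shRNA2, against 2240 and 2280 CPM in shControl libraries, a log2 ratio of 0.95. The ratio of alpha- to beta-tubulin counts was therefore 1.92 and 1.95 with shRNA1 and 2 and 2.09 with shRNA2, against 2.39 and 2.33 in shControl libraries. Each hairpin library had a lower ratio than each shControl library. The beta-tubulin counts in this ratio are those the genes were picked on, and how often such ratios separate the groups was not examined.

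Each isotype's share of the beta-tubulin counts shows how the mixture differed. TUBB4B made up 43.8% and 44.7% with shRNA1 and 44.7% and 46.2% with shRNA2, against 48.2% and 47.5% in shControl libraries, 3 percentage points lower on average. TUBB made up 17.7% and 17.3% with shRNA1 and 17.1% and 18.3% with shRNA2, against 14.4% and 16.2% in shControl libraries, 2.25 points higher (1.34 without shControl replicate 1, 3.15 without shControl replicate 2). The exact binomial intervals of TUBB in the 2 shControl libraries (13.9% to 15% and 15.8% to 16.7%) did not meet, so these libraries differed beyond counting error. TUBB3 made up 17.7% and 17.3% with shRNA1 and 17.8% and 17% with shRNA2, against 16.1% and 15.7% in shControl libraries, 1.51 points higher. For all these isotypes the hairpin and shControl libraries did not overlap. These shares rest on the counts the genes were picked on, and how often shares in other gene families separate in this way was not examined. Nothing is read from the separation.

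TUBB4A made up 0.394% and 0.468% with shRNA1 and 0.499% and 0.459% with shRNA2, against 0.0746% and 0.0984% in shControl libraries. Its share was 5.26 times as high under the hairpins, yet it stayed a minor isotype in every library. TUBB6 averaged 13.8% ± 0.00276 with shRNA1, 12.9% ± 1.01 with shRNA2 and 14.3% ± 0.731 in shControl libraries (SD, n = 2 each), and its libraries overlapped. TUBB2A averaged 4.43% ± 0.103 with shRNA1, 4.02% ± 0.136 with shRNA2 and 4.27% ± 0.131 in shControl libraries and also overlapped, with a difference of −0.0501 points that became 0.0428 points without shControl replicate 2. TUBB2B averaged 2.18% ± 0.0334 with shRNA1, 2.03% ± 0.138 with shRNA2 and 2.29% ± 0.121 in shControl libraries. Its highest hairpin library and its lowest shControl library both stood at 2.2%.

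**Figure D3:**
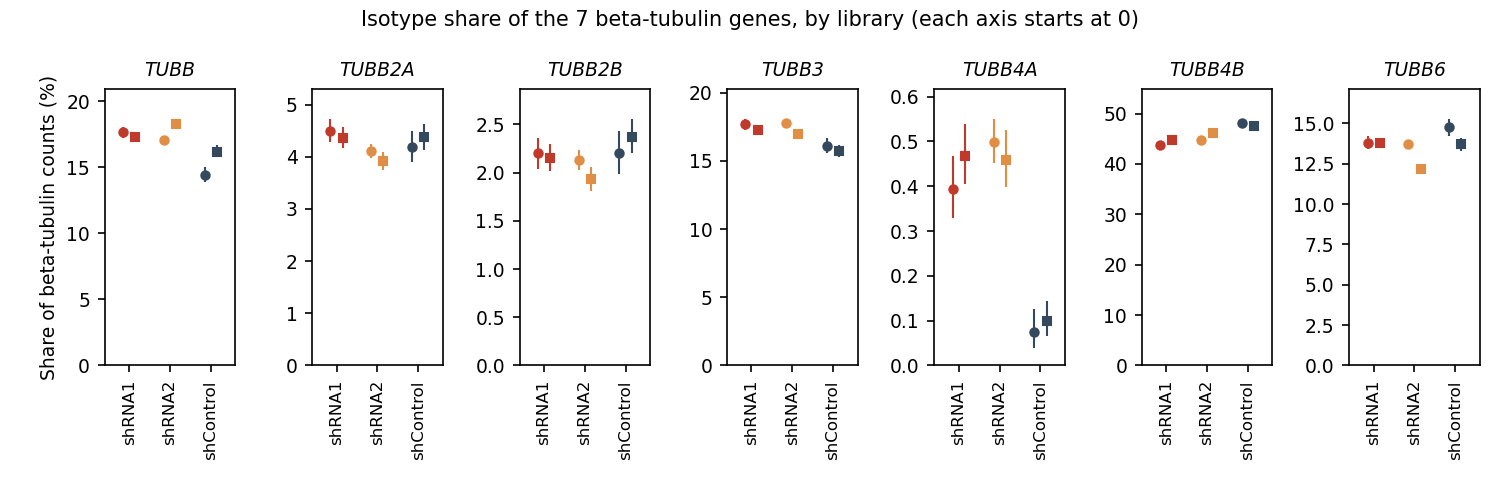
Share of the summed counts of the 7 beta-tubulin genes taken by each isotype (percent, each axis from 0), by library (circles replicate 1, squares replicate 2), with 95% exact binomial intervals that cover counting error only. TUBB4A lies between 0.394% and 0.499% in hairpin libraries and at 0.0746% and 0.0984% in shControl libraries, and TUBB4B at 43.8% to 46.2% and at 48.2% and 47.5%.

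Set on a scale that allows levels of different genes to be compared, CPM per kilobase of all annotated exons, TUBB4B led with 462 ± 8.2 in shRNA1, 472 ± 3.75 in shRNA2 and 217 ± 4.49 in shControl libraries (SD, n = 2 each). TUBB followed with 115 in both hairpin groups and 43.7 in shControl, TUBB3 with 87, 86.2 and 34.4 in shRNA1, shRNA2 and shControl, and TUBB6 with 74, 68.9 and 33.1 in the same groups. In shControl libraries TUBB3 (34 to 34.7) and TUBB6 (32.6 to 33.6) were near each other without overlapping. The order of these 3 genes rests on the length used: TUBB3 has 4430 bases of annotated exons but a principal transcript of 1769 bases. Per kilobase of that transcript TUBB3 reached 218 in shRNA1, 216 in shRNA2 and 86.1 in shControl, above TUBB at 144, 145 and 55. On the same scale TUBB6 was at 148, 138 and 66, above TUBB in shRNA1 and shControl and below it in shRNA2. TUBB2A and TUBB2B came next, and TUBB4A (2.74, 3.03 and 0.24 in shRNA1, shRNA2 and shControl, per kilobase of exons) and MAP1A (0.924, 0.897 and 0.0991) last. TUBB2B and MAP1B changed places: TUBB2B had 19.1 to 22.1 and MAP1B 15.6 to 17.4 in hairpin libraries, and TUBB2B 9.39 to 10.6 and MAP1B 13.6 to 14.2 in shControl libraries.

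Between the hairpins, none of the 9 genes was called (edgeR quasi-likelihood test, Benjamini-Hochberg adjustment over 16039 genes), where 0.0312% of tested genes were. At an unadjusted p under 0.05 there was 1 of the 9, TUBB2A, and DESeq2 also called none of them. TUBB2A was 0.15 ± 0.06 higher with shRNA1 on the log2 scale, and both shRNA1 libraries lay above both shRNA2 libraries. It missed the threshold after adjustment (edgeR adjusted p = 0.916). The 95% intervals of the shRNA1 to shRNA2 ratio bound the differences these libraries leave room for. For TUBB, TUBB2A, TUBB2B, TUBB3, TUBB4B, TUBB6 and MAP1B they lay between 0.885 and 1.23. For TUBB4A, with fewer counts, the interval was 0.683 to 1.2, and for MAP1A 0.793 to 1.34. Over all genes 5 were called in this contrast (CPT1B, UGT1A9, ELOCP2, CTD-2192J16.20 and LA16c-431H6.6, named after their values were seen), 873 had an unadjusted p under 0.05, and DESeq2 called 17.

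Other rows of the table carry the TUBB name, mostly pseudogenes. Of 38 such rows 27 were at 0 counts in every library and 2 were tested. TUBBP1, a processed copy of TUBB, had 918 and 1281 counts with shRNA1 and 1869 and 1172 with shRNA2, against 434 and 626 in shControl libraries, 2.23% to 2.94% of all TUBB-named counts. Its log2 fold change of 1.37 ± 0.07 stood beside 1.39 ± 0.07 for TUBB, with which it shares 131 of TUBB's 2571 windows of 100 bases, so reads of these 2 rows may have been split. TUBB2BP1 (1.37 ± 0.34, 16 to 74 counts) shares windows with TUBB2A and TUBB2B. TUBB1, the isotype of platelets, had 0 to 13 counts per library and was not tested.

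Several of the genes overlap another gene on the opposite strand, and whether the counting used strand is not given in the sources used here. TUBB6 shares 837 exon bases (20.3% of its exons) with AFG3L2, a mitochondrial protease gene whose own log2 fold change was 0.05 ± 0.06. TUBB2B shares 174 exon bases with PSMG4 (−0.36 ± 0.17), TUBB 538 with AL662797.1 and TUBB4B 124 with FAM166A, both with few counts. A readthrough gene, AC092143.1, holds 89.0% of TUBB3's 100-base windows and was listed at 0 counts. MAP1A and MAP1B shared no window of 50 or 100 bases with another gene.

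TUBB4A and MAP1A had the highest fold changes of the 9, and the 250 bases upstream of their annotated starts are shown for this reason (RefSeq, GRCh38.p14, each in the gene's own 5′ to 3′ direction). Capitals mark matches, on either strand, to a GC box (GGGCGG), to a site of the factor NF-Y (CCAAT), to a TATA box (TATAAA), to an E-box (CACGTG) or to the inverted units of a heat shock element (GAANNTTC), and adjoining matches run together.
TUBB4A, chr19:6502310-6502559, minus strand: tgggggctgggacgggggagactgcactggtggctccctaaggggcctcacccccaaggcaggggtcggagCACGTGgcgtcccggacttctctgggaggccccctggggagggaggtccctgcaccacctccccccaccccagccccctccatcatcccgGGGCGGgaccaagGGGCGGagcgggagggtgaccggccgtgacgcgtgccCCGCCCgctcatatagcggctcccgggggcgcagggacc
TUBB4A, chr19:6502849-6503098, minus strand: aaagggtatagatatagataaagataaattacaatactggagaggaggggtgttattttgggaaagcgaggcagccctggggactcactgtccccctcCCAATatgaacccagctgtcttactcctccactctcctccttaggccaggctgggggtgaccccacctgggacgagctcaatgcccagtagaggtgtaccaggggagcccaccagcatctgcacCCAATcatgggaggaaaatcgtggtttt
MAP1A, chr15:43510704-43510953, plus strand: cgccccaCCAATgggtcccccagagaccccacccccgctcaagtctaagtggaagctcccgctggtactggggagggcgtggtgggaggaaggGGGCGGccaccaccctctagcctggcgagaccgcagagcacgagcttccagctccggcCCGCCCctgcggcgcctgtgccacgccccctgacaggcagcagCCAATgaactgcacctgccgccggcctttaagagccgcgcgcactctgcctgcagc
MAP1A, chr15:43517358-43517607, plus strand: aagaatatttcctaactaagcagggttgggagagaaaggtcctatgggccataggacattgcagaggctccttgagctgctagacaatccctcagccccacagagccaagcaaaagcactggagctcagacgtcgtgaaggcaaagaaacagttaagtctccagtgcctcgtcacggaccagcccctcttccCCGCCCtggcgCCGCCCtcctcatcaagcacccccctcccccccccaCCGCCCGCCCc
The 9 genes have 15 such windows, up to 2 a gene. GGGCGG was in 11 of the 15, from all genes but TUBB4B, and in 42.6% of the 35116 windows of the RefSeq table. CCAAT was in 7 of the 15 and in 32.0% of all windows, with 3 matches in TUBB4B. CACGTG was in 2 of the 15 (TUBB and TUBB4A; 6.3% of all), TATAAA in 3 (TUBB2A and MAP1B; 10.7% of all) and GAANNTTC in 1 (MAP1B; 5.8% of all). The GGGCGG and CCAAT matches were found in TUBB4A and MAP1A as well as in abundant isotypes such as TUBB and TUBB6. These are letters in a window and say nothing on binding.

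The genes whose levels over the 6 libraries ran most like TUBB4A and MAP1A were the same 3 of 12583 considered: NPBWR1, a neuropeptide receptor gene, PCDHGC5, a protocadherin gene, and PDE1A, a calmodulin-dependent phosphodiesterase gene. Likeness was the Euclidean distance between centred log2 CPM values. It includes the gap between hairpin and shControl libraries on which TUBB4A and MAP1A were picked, so nothing is read from it on shared regulation. The log2 fold changes of the 3 genes were 3.47 (NPBWR1), 3.04 (PCDHGC5) and 2.84 (PDE1A). All 3 averaged under 2 CPM in shControl libraries, so they met the required mean of 2 CPM only through the hairpin libraries. For TUBB4A the distances were 0.376 (NPBWR1), 0.585 (PCDHGC5) and 0.899 (PDE1A), and for MAP1A 0.448 (PCDHGC5), 0.488 (NPBWR1) and 0.589 (PDE1A). NPBWR1 averaged 15.6 CPM with shRNA1 and 15.1 with shRNA2, against 1.36 in shControl libraries. PCDHGC5 averaged 9.32 and 9.9 CPM with the hairpins, against 1.13 in shControl libraries, and PDE1A 8.66 and 7.38 CPM, against 1.09. With Pearson correlation in place of distance none of these 3 was among the nearest. The nearest were then SQLE, ATAD3A and CRNKL1 for TUBB4A and HSP90AA1, ZFHX4 and FAM98A for MAP1A. Each had a correlation that rounds to 1, so this measure hardly ranks them.

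Of 119 other genes of the microtubule system in the table, 98 were tested, and for the mean of both hairpins 43 were higher, 26 lower and 29 not called, with a median log2 fold change of 0.14. Of all tested genes 28.6% were higher and 28.9% lower. With total counts as library sizes 32 of the 98 were higher and 31 lower, where 21.2% of all tested genes were higher and 37.6% lower. Against a fold of 1.2 (glmTreat) 28 were higher and 18 lower, where 19.3% of all tested genes were higher and 20.2% lower. Whether these genes differ from the rest was not tested, and the lists that follow are counts to be read beside these shares. None of the 98 was called between the hairpins by edgeR, while DESeq2 called TUBA1B (−0.1, adjusted p = 0.0224) and leaving out shRNA2 replicate 2 called DCLK1, a doublecortin-like kinase gene (1.18, 0.013). Adjusted p-values of these genes are from edgeR's quasi-likelihood test unless DESeq2 is named.

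Among alpha-tubulins 4 of 5 tested rose and TUBA3D, with few counts, did not pass (0.52 ± 1.06, adjusted p = 0.7). TUBA1A, the alpha isotype of growing neurons, averaged 779 and 792 CPM with the hairpins, against 258 CPM in shControl libraries (1.6 ± 0.03, adjusted p = 4.9e-15). TUBA1B, the alpha isotype gene with the highest counts, averaged 2410 and 2570 CPM with the hairpins, against 1160 CPM in shControl libraries (1.1 ± 0.02). TUBA1C rose less (0.41 ± 0.03), and TUBA4A by 0.32 ± 0.05 (adjusted p = 0.123 against a fold of 1.2, so not called there). The other tubulins, which nucleate microtubules or serve centrioles, differed in direction. TUBG1, gamma-tubulin, rose (0.85 ± 0.04, adjusted p = 2.28e-10), and TUBE1, epsilon-tubulin of centrioles, fell to 3.3 CPM with shRNA1 and 3.52 CPM with shRNA2, against 16.5 CPM in shControl libraries (−2.28 ± 0.28, adjusted p = 0.000161). TUBD1 (0.47 ± 0.18, adjusted p = 0.0369) lost its call without shControl replicate 1 (0.48, 0.127) or its replicate 2 (0.44, 0.172), and likewise without shRNA2 replicate 2 (0.38, 0.116) or the first shRNA1 library (0.42, 0.0782), under total counts (0.32, 0.149) and with no filter on low counts (0.45, 0.0527). TUBG2 (−0.26 ± 0.09, adjusted p = 0.0248) lost it without the second library of shControl (−0.16, 0.291), of shRNA2 (−0.25, 0.0603) or of shRNA1 (−0.24, 0.0649), and DESeq2 called neither (0.0951 for TUBD1 and 0.0805 for TUBG2).

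New tubulin chains are folded by the CCT chaperonin, handed over by prefoldin, and joined into dimers by tubulin cofactors. Of 22 genes of this route, all tested, 17 rose, 2 fell and 3 were not called, with a median log2 fold change of 0.55. All 8 CCT subunit genes listed rose, led by CCT3 (1.31 ± 0.03, adjusted p = 6.5e-14), TCP1 (1 ± 0.03), CCT5 (0.87 ± 0.03) and CCT6A (0.81 ± 0.03). The 2 that fell were prefoldin subunit genes, PFDN2 (−0.69 ± 0.07) and PFDN4 (−0.33 ± 0.11, adjusted p = 0.0149), and 1 of this list was lower by DESeq2, against a fold of 1.2, after removal of a length and GC trend, or without shControl replicate 2. In the autoregulation list TTC5, which recognises nascent tubulin, did not pass (0.22 ± 0.12, adjusted p = 0.123) but did after removal of a length and GC trend (0.36, 0.0141). SCAPER, its adaptor, fell (−0.7 ± 0.15, adjusted p = 0.000817) and CNOT11, a CCR4-NOT subunit, rose (0.22 ± 0.06, 0.00559), but neither passed without shControl replicate 2 (−0.48, 0.0589 for SCAPER and 0.15, 0.143 for CNOT11), and CNOT11 did not under total counts (0.06, 0.392). CNOT10 was at 0 ± 0.07 (adjusted p = 0.977).

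Of 17 tested genes for structural microtubule-associated proteins other than MAP1A and MAP1B, 4 rose (2 against a fold of 1.2), 5 fell and 8 were not called, with a median of 0.06. These shares are near the 28.6% higher and 28.9% lower of all tested genes. MAP4, the main such protein outside neurons, rose by 0.36 ± 0.03 (adjusted p = 1.06e-08). EML4 (−1.07 ± 0.05), MTUS1 (−0.84 ± 0.06) and MAP1LC3B (−0.8 ± 0.04), better known as the autophagy protein LC3B, fell. MAP1S, the third MAP1 heavy-chain gene, was at 0.06 ± 0.16 (adjusted p = 0.758, chosen after its value was seen). Of 6 tested genes for stathmins and collapsin response mediator proteins, 4 rose (2 against a fold of 1.2) and 1 fell (2 were lower under total counts). DPYSL2, which binds tubulin dimers, rose by 0.73 ± 0.04 (adjusted p = 1.81e-10), CRMP1 by 0.7 ± 0.15 and STMN1, stathmin, by 0.31 ± 0.04 (adjusted p = 0.0851 against a fold of 1.2), and STMN3 fell by 1.99 ± 0.36.

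At microtubule ends 5 of 16 tested genes rose, 6 fell and 5 were not called, again near the 28.6% and 28.9% of all tested genes. MAPRE1, the end-binding protein EB1, rose by 1.01 ± 0.04 (adjusted p = 9.75e-12), and CLIP1 (−0.71 ± 0.06), CAMSAP2 (−0.44 ± 0.05) and CKAP5, a polymerase of growing ends (−0.28 ± 0.03, with an adjusted p of 0.24 against a fold of 1.2), fell. Of 7 severing enzyme genes 2 rose and 4 fell, with a median of −0.36. FIGN, fidgetin, rose (0.95 ± 0.08), KATNA1, the katanin catalytic subunit, fell (−0.45 ± 0.09), and KATNAL2 (−1.03 ± 0.28, adjusted p = 0.00558) and FIGNL1 (−0.37 ± 0.1, 0.00624) fell but were not called without shControl replicate 1 (−0.82, 0.0949 for KATNAL2 and −0.33, 0.0715 for FIGNL1). FIGNL1 was not called either after removal of a length and GC trend (−0.21, 0.0962) or against a fold of 1.2 (0.12). Of this list 2 were lower under each of these settings, and 1 was higher under total counts, with no filter on low counts, by DESeq2, against a fold of 1.2, or without shRNA2 replicate 1 or shControl replicate 2. Of 17 tested genes for enzymes that modify tubulin, 4 rose, 5 fell and 8 were not called, where 28.6% of all tested genes were higher and 28.9% lower. In this list 2 were higher under total counts, by DESeq2 or against a fold of 1.2, and 3 were lower by DESeq2, against that fold, or without shRNA1 replicate 1 or shControl replicate 1. TTLL5, a glutamylase of tubulin tails, rose by 0.74 ± 0.07 (adjusted p = 1.36e-07) and TTL, which puts tyrosine back on alpha-tubulin, by 0.49 ± 0.06, while AGTPBP1, a deglutamylase, fell by 0.56 ± 0.06 and TTLL3, a glycylase, by 0.52 ± 0.08.

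**Figure D4:**
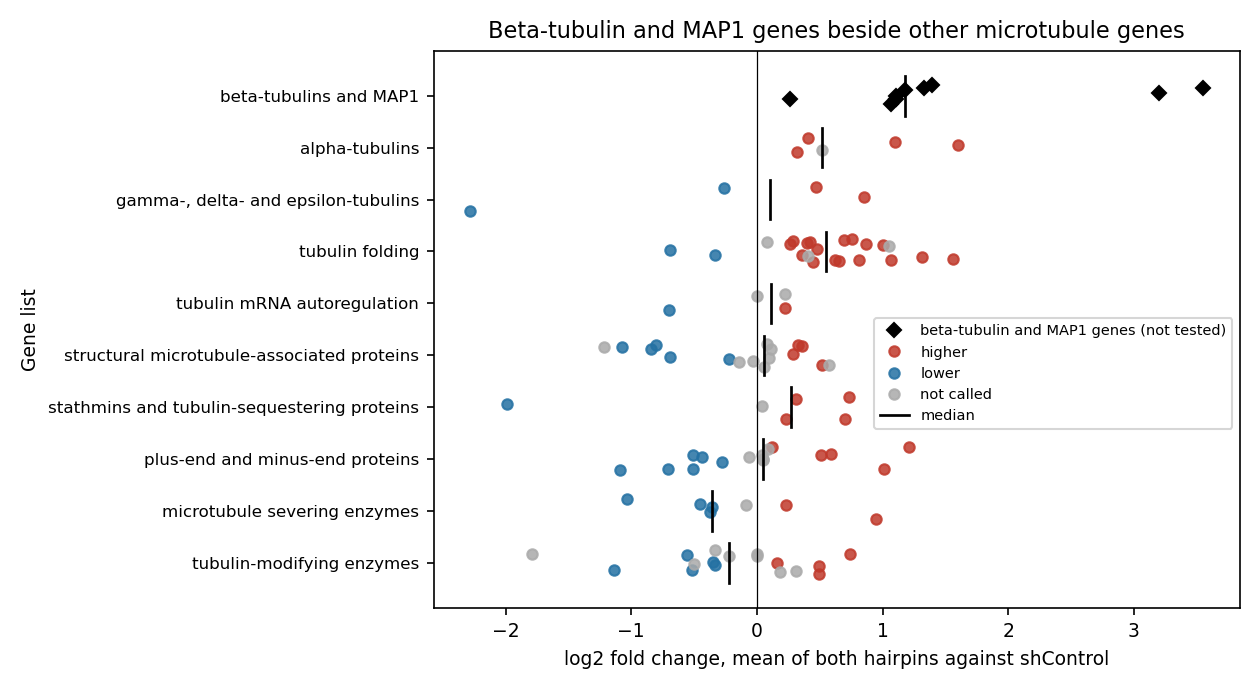
Log2 fold change (mean of both hairpins against shControl) of each tested gene, by list, with black diamonds for the 7 beta-tubulin and 2 MAP1 genes, which were picked on this contrast and not tested, and red, blue or grey circles for genes called higher, lower or not called. Vertical lines are medians, 1.18 for the beta-tubulin and MAP1 genes, 0.55 for tubulin folding, 0.06 for structural microtubule-associated proteins and −0.36 for severing enzymes.

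TUBB3, TUBB4A, MAP1A and MAP1B are known from nerve tissue, and markers of nerve cells were read beside them. Of 20 neuronal markers 6 were at 0 counts in every library (SYN1, INA, ELAVL2, ELAVL4, GAP43 and STMN2) and 8 were tested, of which 3 rose and 3 fell. Counts called in each marker list are to be read beside all tested genes, of which 28.6% were higher and 28.9% lower. NEFL, a neurofilament chain, rose to 178 CPM with shRNA1 and 174 CPM with shRNA2, against 58.7 CPM in shControl libraries (1.58 ± 0.04, adjusted p = 1.57e-13). ENO2 (0.27 ± 0.06) and UCHL1 (0.18 ± 0.04) rose slightly. NCAM1 fell to 103 CPM with shRNA1 and 107 CPM with shRNA2, against 169 CPM in shControl libraries. STX1A fell to 7.9 and 7.06 CPM, against 25.1 CPM, and SNAP25 to 1.45 and 2.31 CPM, against 5.09 CPM, in the same groups. With total counts as library sizes, or against a fold of 1.2, 1 of this list was higher. Summed over the list, neuronal markers were at 568 to 576 CPM in hairpin libraries and 505 CPM in both shControl libraries. The rise of NEFL alone was larger than the rise of this sum, so without NEFL the sum was lower in hairpin libraries. Whether any of these markers, which differed in direction, bears on the levels of the beta-tubulin and MAP1 genes was not tested. Of 10 glial markers 5 were at 0 in every library (MOG, MAG, OLIG1, OLIG2 and S100B), none of the 3 tested rose, and MBP and AQP4 fell. The sum was 45.4 to 52.1 CPM in hairpin libraries, against 128 and 115 CPM in shControl libraries. Most of this sum was MBP, which averaged 45.5 CPM with shRNA1, 47.1 CPM with shRNA2 and 109 CPM in shControl libraries. All 11 markers of the renal carcinoma line were detected, with a sum of 9200 to 9350 CPM in hairpin libraries, against 7420 and 7400 CPM in shControl libraries, and 7 rose (3 against a fold of 1.2) and 3 fell (1 without shControl replicate 2). VIM, vimentin, had the highest counts of these, at 5940 CPM with either hairpin and 5150 CPM in shControl libraries.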

How the data were processed

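The authors deposited a table of raw read counts, whole numbers by gene, with a column for each of 6 libraries. RNA was isolated with TRIzol, and an Abclonal kit and paired-end Illumina sequencing were used, per the labels. Per the submitters' processing notes, the authors used FastQC 0.11.9, Trim Galore 0.6.7, HISAT2 2.2.1, StringTie 2.2.1 and hg38. The sources used here do not name the counting tool, its annotation, its strand setting or its handling of reads with several matches, and these decide how near-identical tubulin genes share reads.

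Genes passing filterByExpr by group (16039, holding 99.9% of counts) were scaled by TMM and fitted with edgeR 4.0.16 in R 4.3.3 (limma 3.58.1; robust quasi-likelihood, all 6 libraries). Contrasts were the mean of both hairpins against shControl, each hairpin against shControl, and shRNA1 against shRNA2. Adjusted p-values (Benjamini-Hochberg over all tested genes) under 0.05 were called. Levels are CPM on TMM-scaled library sizes. Intervals are 95% exact Poisson (levels), exact binomial (shares, counting error only) or from the fit (ratios). The code was tested on simulated data. The genes described and all lists were chosen with earlier results of these data known. In each list up to 4 called genes with the smallest p are named, with all alpha-tubulins tested, all genes of lists of 4 or fewer and the leading markers, and further genes were chosen after their values were seen. Alternatives were RLE factors, total counts, no filter or a stricter filter, DESeq2 1.42.0, a replicate block, glmTreat at a fold of 1.2, a length and GC trend (mgcv 1.9.3) and each library left out in turn.

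Positions, exon lengths and coding sequences come from GENCODE 29, which holds 58381 of the gene IDs (96.3%), and promoters from RefSeq on GRCh38.p14, where all 9 genes matched in 15 windows. Protein sequences were not used here.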

Additional observations from a re-analysis of the deposited data

How the results depend on the processing

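With 2 libraries in a group, and 13 to 29 counts of TUBB4A and MAP1A in each shControl library, the size of their fold changes rests on few reads. Between the hairpins 0 of the 9 genes were called under every alternative run, each library left out in turn included. Total counts lowered the log2 fold changes to 1.24 for TUBB, 1.02 for TUBB2A, 0.92 for TUBB2B, 1.18 for TUBB3, 0.95 for TUBB4B, 0.96 for TUBB6 and 3.04 for MAP1A, and leaving out shControl replicate 2 gave 3.83 for TUBB4A. The difference in TUBB4A's share was 0.287 points per kilobase of exons and 0.267 points per kilobase of the principal transcript, a scale chosen after seeing the data, against 0.368 points on counts, since these scales weigh isotypes by length. Without each library in turn it was 0.35 to 0.387 points. The difference in TUBB2A's share turned sign, to 0.0348 points per kilobase of exons, −0.143 to 0.0428 points with a library left out in turn (0.0428 without shControl replicate 2) and 0.127 points with replicate number 1 alone as a replicate block. Of the other microtubule genes, 28 were higher when tested against a fold of 1.2, which asks for a larger change, and 36 to 43 were higher and 20 to 26 lower with a library left out. Between the hairpins 1 was called by DESeq2, and 0 to 1 with a library left out (1 without shRNA2 replicate 2). The cause was not tested in these cases. With Pearson correlation, 0 of the 3 genes nearest to TUBB4A and 0 of the 3 nearest to MAP1A were shared with those given by distance, and with total counts all 3 were. Over all genes a replicate block called 9170 for the mean of both hairpins, against 9223 without it, and 9 against 5 between the hairpins. Same-numbered libraries did not deviate together (correlations of replicate differences 0, 0.01 and −0.03), so the numbers were not taken as pairs. A fit to only the groups compared was run between the hairpins and called none of the 9 genes, and for the mean of both hairpins it is the fit already given.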
